A study of Danio rerio with 56 samples.

Results

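Estradiol given alone was set against its solvent in zebrafish pools sampled at 32 days of age. The members were the 3 E2 libraries (17β-estradiol at 100 ng/L, in DMSO) and the 3 DMSO libraries (solvent only) of that age, 6 of the 56 libraries of the series, with every gene that passed a filter on low counts: 21242 of the 32520 genes counted. Each library held the whole bodies of 25 pooled fish of strain AB, which were exposed without a break, with the water renewed daily, until sampling. The study took such pools at 2, 8, 16, 32 and 64 d to follow sex development, and its other exposures were exemestane (EM, 10 µg/L), an inhibitor of the aromatase enzyme that makes estradiol, and EM with E2. All groups, the control included, received DMSO. Used beside the 6 libraries were the 3 EM+E2 and 3 EM libraries of 32 d, 3 E2 and 3 DMSO libraries of 16 d, and 2 E2 and 3 DMSO libraries of 64 d. The labels give no sex for the pooled fish and do not state whether replicate pools came from separate tanks. P-values here therefore measure the spread between libraries, which may be technical.

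Estradiol acts through nuclear oestrogen receptors. In egg-laying fish its best-known target is the liver, which under its action makes the vitellogenins, the yolk precursors that the blood carries to growing oocytes. Juvenile zebrafish first form an ovary-like gonad with early oocytes, which future males lose and future females keep, and in this species the egg envelope (zona pellucida, zp) proteins are made by the oocyte itself. A whole-body pool mixes all these organs, so each value is relative to the RNA of whole fish. Fewer cells of a type cannot be told apart from less RNA per cell.

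The libraries of 32 d held 5048321 to 10144213 counted reads. DMSO replicate 2 stood apart. It had reads in 20791 genes, against 23437 to 24882 in the 11 others, and mitochondrial transcripts took 20.4% of its reads, against 6.89% to 10.9%. Its profile correlated at 0.887 with the mean of the 16 d DMSO libraries and at 0.819 with the other DMSO libraries of 32 d (Pearson r of log2(CPM + 1) across 22531 genes, which are not independent replicates, CPM being read counts scaled to a common library size), while the other 5 libraries correlated more closely with the 32 d mean (0.899 to 0.958) than with the 16 d mean (0.870 to 0.921). Single stage markers did not place it at 16 d. The adult alpha globin hbaa1 stood at 566 CPM in DMSO replicate 2, against 0.114 to 1.5 CPM in the 16 d DMSO libraries, and the embryonic globin hbae3 was at 0, against 123 to 196 CPM at 16 d. Results are therefore given with this library and, where its absence changes them, without it. CPM values include a scaling factor between libraries (TMM), so they are not plain shares of reads. The mitochondrially encoded list summed to 375100 CPM in DMSO replicate 2, beside its 20.4% of reads. In DMSO replicate 3 it summed to 56830 CPM, beside 6.89% of reads.

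With all libraries, no gene differed between E2 and DMSO at an adjusted p under 0.05 (edgeR quasi-likelihood test, Benjamini-Hochberg over 21242 genes, background 0.0%). An unadjusted p under 0.05 was reached by 1038 genes with higher values in E2 (4.89%) and by 779 with lower values (3.67%), and the smallest adjusted p was 0.0518, for zp3b. DESeq2 called 120 genes (0.565%), 37 higher and 83 lower in E2. Without DMSO replicate 2, edgeR called 156 of 21884 genes (0.713%). Of these 11 were higher in E2 (0.0503%) and 145 lower (0.663%). An unadjusted p under 0.05 was reached there by 1562 genes with higher (7.14%) and 2105 with lower values in E2 (9.62%), and DESeq2 called 987 (4.51%). In what follows a call is edgeR's at an adjusted p under 0.05 unless DESeq2 is named. Counts by DESeq2 on any list below have as background its 0.565% with all libraries and 4.51% without DMSO replicate 2. Both shares take the 2 directions together. The calls were shared in part: 60 of the 156 (38.5%) were also among the 120 that DESeq2 called with all libraries (50.0% of those). The count without DMSO replicate 2 also rested on the other controls, and fell when DMSO replicate 1 or 3 was left out as well. Those fits keep 1 DMSO library and take their spread from the other groups. A call kept or lost there, as given below, has no replicated control behind it.

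Egg envelope transcripts were low in E2 pools and high in DMSO pools. Their summed level was 6.638, 6.329 and 10.15 CPM in the 3 E2 libraries, against 446.1, 80.42 and 210.7 CPM in the 3 DMSO libraries, over 19 measured genes. All 3 DMSO pools, the unusual one included, lay far above all 3 E2 pools. Counted without any filter, 16 of the 19 genes had every E2 library below every DMSO library (84.2%, against 3.09% of all 27825 genes with a read). Only 9 of the 19 passed the filter with all libraries, where edgeR called none and DESeq2 all 9 lower. In the fit without DMSO replicate 2, 15 of the 19 passed it, of which edgeR called 11 lower and DESeq2 12. Among those called by edgeR, zp2.5, zp3c and zp3f.1 passed only there, through DMSO replicates 1 and 3, where they are high. Their calls are given without weight. Members near 0 in E2, EM and EM+E2, such as zp2.2 and zp3, passed in both fits through DMSO alone, where they are high. The counts of calls on this list, those of DESeq2 included, are therefore given without weight too. The levels per library do not depend on the filter.

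zp3b, which encodes an egg envelope protein, stood at 1.55, 0.844 and 1.59 CPM in E2, against 58.3, 17.5 and 35.0 CPM in DMSO. The groups did not overlap, and the means were 1.33 ± 0.418 CPM in E2 and 37.0 ± 20.5 CPM in DMSO (SD, n = 3 each). Its log2 fold change was -4.79 (SE 0.59, edgeR adjusted p = 0.0518) with all libraries and -5.13 (SE 0.49, edgeR adjusted p = 0.00196) without DMSO replicate 2. zp2.2, of the other large envelope family, had 0, 0.281 and 0.634 CPM in E2, against 57.9, 11.3 and 22.5 CPM in DMSO, and zp3.2 had 0, 0 and 0.423 CPM in E2, against 27.5, 7.02 and 16.7 CPM in DMSO. Both lay apart in every library, with edgeR adjusted p of 0.0867 each with all libraries, and 0.00503 for zp2.2 and 0.00605 for zp3.2 without DMSO replicate 2. Neither passed the filter through E2. zp2.2 was also at 0 in EM and at most 0.276 CPM in EM+E2, so it passed through DMSO alone, where it is high. The p-values of both genes are given without weight. zp2.5 did not pass the filter with all libraries. It had 0, 0 and 0.106 CPM in E2, against 11.4, 0.501 and 4.57 CPM in DMSO, a single read in E2. It passed the filter in the repeat only through DMSO replicates 1 and 3, the group where it is high, so its edgeR adjusted p of 0.0123 there is given without weight. The same repeat called zp3, zp3a.1, zp3a.2, zp3c, zp3d.1 and zp3f.1 lower, with log2 fold changes from -5.88 (zp3f.1) to -4.13 (zp3d.1). Of these, zp3c and zp3f.1 also passed the filter only in the repeat, so their calls are given without weight too. Dropping DMSO replicate 1 as well left zp3b called, but not zp2.2, zp3.2, zp2.5 and zp3f.1 (edgeR adjusted p of 0.076, 0.0802, 0.126 and 0.144), and the last 2 were also lost without E2 replicate 1 or 3. Near-identical zp copies may have split or lost reads in the counting, so the split between single copies is uncertain.

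**Figure D1:**
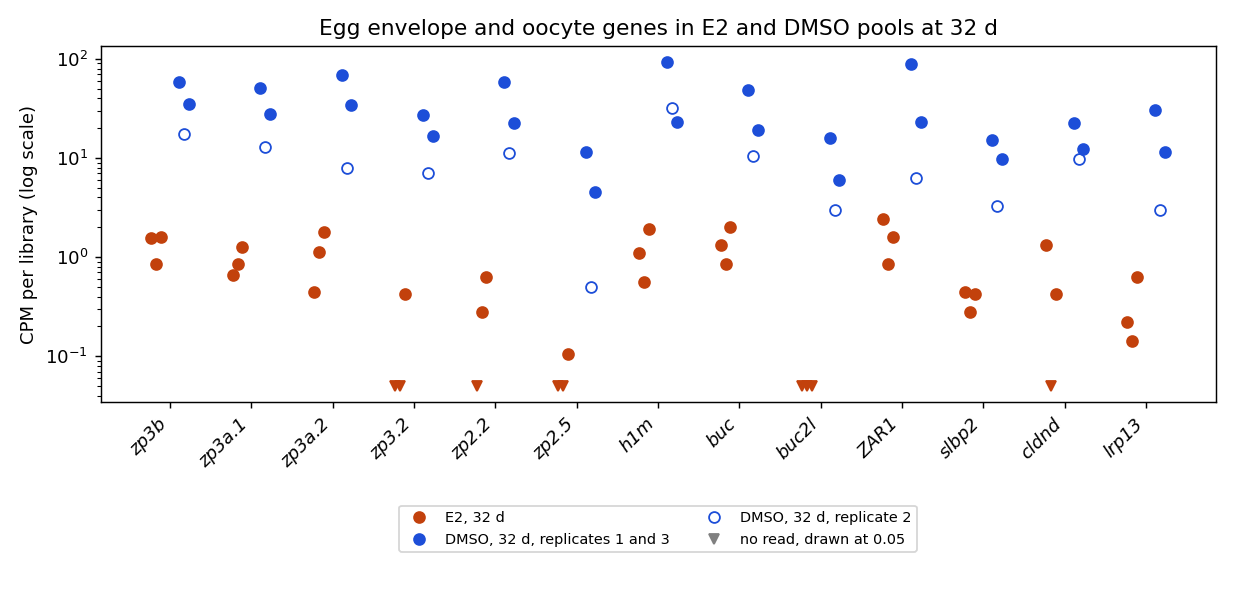
CPM per library on a log axis for 13 egg envelope and oocyte genes, E2 at the left and DMSO at the right of each gene; the open circle is DMSO replicate 2 and triangles are libraries without a read, drawn at 0.05 CPM. For zp3b the E2 libraries sit at 0.844 to 1.59 CPM and the DMSO libraries at 17.5 to 58.3 CPM, and in all 13 genes every E2 library lies below every DMSO library. Oocyte list genes that overlapped, such as gdf9 (GDF9), figla and YBX1, are not drawn.

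Genes that act inside the oocyte had a like pattern. h1m, the oocyte linker histone, had 1.11, 0.563 and 1.90 CPM in E2, against 92.9, 31.8 and 23.3 CPM in DMSO (log2 fold change -5.32, SE 0.78, edgeR adjusted p = 0.0867; 0.00503 without DMSO replicate 2). buc, the organiser of the Balbiani body that sets the oocyte's polarity, had 1.33, 0.844 and 2.01 CPM in E2, against 49.0, 10.5 and 19.4 CPM in DMSO. Its related gene buc2l had no read in any E2 library, against 16.1, 3.01 and 5.94 CPM in DMSO. Set against the level of 3 reads over the E2 group (0.123 CPM, from unscaled read totals), the DMSO mean was 68.1-fold higher. As the DMSO values are scaled, this is a rough figure and not a strict bound. The edgeR adjusted p was 0.106 for buc and 0.0867 for buc2l with all libraries, and 0.00958 for buc and 0.00796 for buc2l without DMSO replicate 2. buc2l did not pass the filter through E2, where it had no read. h1m did not either, and was at most 0.518 CPM in EM and 0.46 CPM in EM+E2. Thus h1m passed through DMSO alone, where it is high. The p-values of h1m and buc2l are given without weight. Without DMSO replicate 1 as well, h1m and buc2l were no longer called, with an edgeR adjusted p of 0.0865 each.

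Of the 30 measured genes of the oocyte list, which shares its zp members with the envelope list, 18 had every E2 library below every DMSO library without any filter (62.1% of the 29 with a read) and none had the opposite. Without DMSO replicate 2, 19 genes of the oocyte, egg envelope and germ cell lists were called lower, each counted once. On the oocyte list 14 of the 24 that then passed the filter fell, shared zp members included, and none rose, beside 0.663% of all genes tested that fell. The 19 genes include zp2.5, zp3c, zp3f.1, nanog and ca15b, which passed the filter only in that repeat. Others, such as slbp2, passed in both fits through DMSO alone, where they are high. Both counts are therefore given without weight. Among the genes called were ZAR1 (2.43, 0.844 and 1.59 CPM in E2, against 88.9, 6.26 and 23.2 CPM in DMSO), needed in zebrafish for oocyte growth, and slbp2, which binds histone mRNA in oocytes. The oocyte-made growth factor gdf9 (GDF9) overlapped, at 0.885, 0 and 0.317 CPM in E2, against 1.35, 0 and 0.731 CPM in DMSO. figla, a transcription factor of early oocytes, had 0, 0.281 and 0.211 CPM in E2, against 4.53, 0 and 1.46 CPM in DMSO, and was not called. YBX1, which many tissues express, made up most of this list's reads, at 3057, 5424 and 3182 CPM in E2, against 2765, 9870 and 2168 CPM in DMSO, so a sum over the list does not describe oocytes.

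Several other genes called lower without DMSO replicate 2 are known from oocytes or eggs, and were picked out here after their values were seen. patl2 and caprin2, called in the same repeat, overlapped through DMSO replicate 2. That library stood at 0.501 CPM for patl2, beside 0.443 to 0.74 CPM in E2. For caprin2 it stood at 0.752 CPM, beside 0.634 to 1.27 CPM in E2. All of the following lay apart. CPEB1, which controls the poly(A) tails of stored mRNA, had 1.99, 2.67 and 0.951 CPM in E2, against 37.5, 7.52 and 21.0 CPM in DMSO. 42sp43, named after a protein of RNA storage particles in frog oocytes, had 0.422 to 2.21 CPM in E2, against 4.51 CPM or more in every DMSO library. zpax1 and zp3e belong to the zona pellucida genes. zpax1 had 6.86, 0.422 and 5.28 CPM in E2, against 158, 22.5 and 107 CPM in DMSO. The lipoprotein receptor relative lrp13 had 0.221, 0.141 and 0.634 CPM in E2, against 30.4, 3.01 and 11.4 CPM in DMSO. Called in the same repeat was crp2, of the acute-phase list, which had 0.221, 0.422 and 0.423 CPM in E2, against 19.6, 4.51 and 11.0 CPM in DMSO. patl2 passed the filter only in that repeat. There, patl2, caprin2, zp3e, lrp13 and crp2 did not pass through E2, so their calls are given without weight. The crp2 call was lost without DMSO replicate 1 as well (edgeR adjusted p = 0.0925).

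The low level was not confined to E2 pools. Summed egg envelope transcripts stood at 7.176, 1.524 and 4.638 CPM in EM+E2 and at 3.102, 1.394 and 2.934 CPM in EM, beside the 6.329 to 10.15 CPM of E2. Among the 4 groups of 32 d, DMSO was the one with high values. At 16 d the sums were 4.789, 5.02 and 5.132 CPM in E2 and 4.452, 3.64 and 2.517 CPM in DMSO (values of 16 and 64 d are on a scale fitted to 17 libraries), which places the E2 pools of 32 d near the level of both 16 d groups. At 64 d they were 2718 and 2558 CPM in E2, against 10500, 3855 and 5551 CPM in DMSO.

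**Figure D2:**
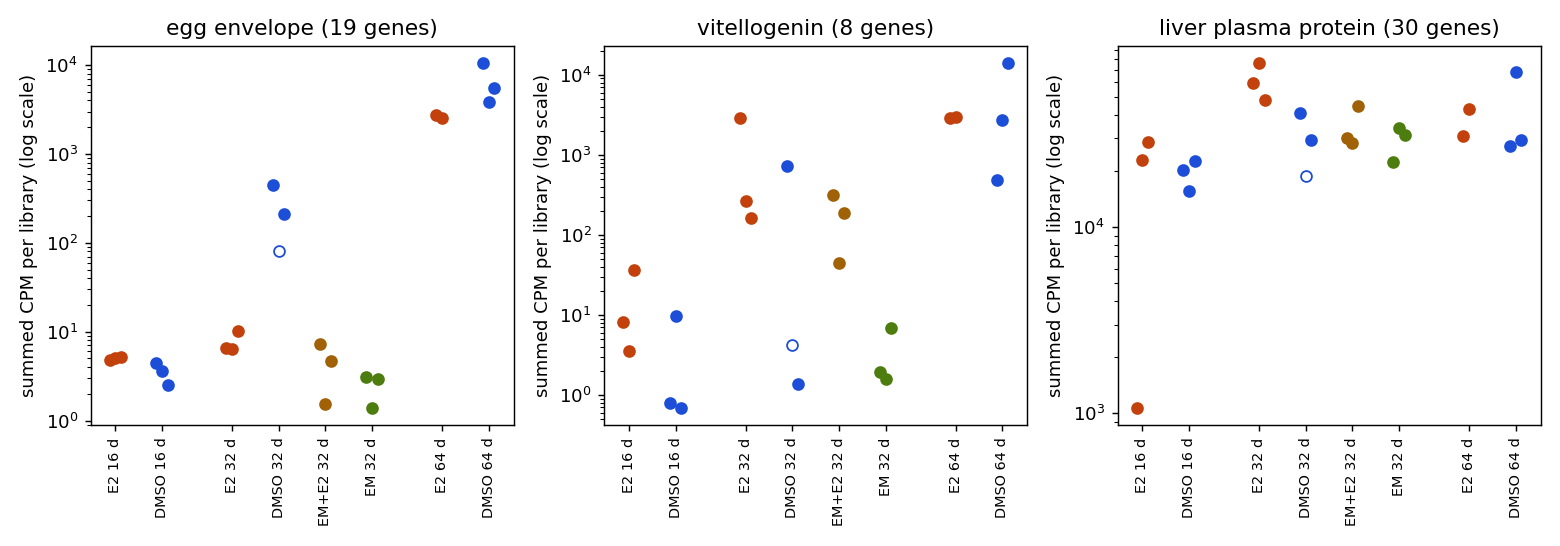
Summed CPM per library on log axes for egg envelope, vitellogenin and liver plasma protein genes at 16, 32 and 64 d, E2 left of DMSO at each age, with EM+E2 and EM at 32 d; each point is a library and the open circle is DMSO replicate 2 of 32 d. Egg envelope sums at 32 d are 6.329 to 10.15 CPM in E2 and 80.42 to 446.1 CPM in DMSO, and vitellogenin sums overlap between these groups.

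Germ cell genes differed less. DDX4 (vasa), an RNA helicase of germ cells of both sexes, had 3.98, 2.25 and 11.2 CPM in E2, against 28.1, 6.26 and 16.4 CPM in DMSO, and the groups overlapped (log2 fold change -1.53, SE 0.67, edgeR adjusted p = 0.579). TDRD1, of the piRNA pathway, had 3.54, 0.422 and 3.70 CPM in E2, against 20.6, 3.76 and 10.5 CPM in DMSO, and DAZL, which binds germ cell mRNA, had 2.66, 0.281 and 2.01 CPM in E2, against 7.52, 5.76 and 4.48 CPM in DMSO. Both lay wholly below DMSO and neither was called. Of the 21 germ cell genes, 19 had a lower mean in E2 (as did 13635 of all 27825 genes with a read) and 7 lay wholly below DMSO (33.3%, against 3.09%). Without DMSO replicate 2, 2 were called lower, nanog and ca15b, and nanog no longer when DMSO replicate 1 was also left out (edgeR adjusted p = 0.0865). DESeq2 called 3 lower there and none with all libraries (of all genes it called 4.51% and 0.565%, in either direction). nanog and ca15b passed the filter only without DMSO replicate 2, through DMSO replicates 1 and 3, where they are high. Their calls are therefore given without weight, and edgeR called 0.663% of all genes lower in that fit. None of the 17 meiosis genes lay apart, and 10 of them had a lower mean in E2. syce2, a part of the synaptonemal complex, had 1.33, 0.141 and 1.27 CPM in E2, against 0.386, 0 and 0.274 CPM in DMSO.

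Of the somatic gonad genes, 12 of 20 on the testis list and 12 of 15 on the ovary list passed the filter, and edgeR called none in either fit. DESeq2 called none with all libraries and 2 of the testis list lower without DMSO replicate 2, where it called 4.51% of all genes in either direction. The best-known markers had few reads. The Sertoli cell hormone amh had 0.221, 0.141 and 0.423 CPM in E2, against 1.16, 0 and 2.47 CPM in DMSO, so that DMSO replicate 2 was the lowest library of the comparison. Its edgeR adjusted p was 0.579 with all libraries and 0.0723 without that one. gsdf, a supporting cell factor of the fish gonad, had 3.32, 0.703 and 0.845 CPM in E2, against 4.34, 1.25 and 8.5 CPM in DMSO (log2 fold change -1.64, SE 0.73, edgeR adjusted p = 0.579), and the groups overlapped. Both genes were high in EM, at 4.83 to 9.39 CPM for amh and 4.66 to 11.3 CPM for gsdf. DMRT1, the testis transcription factor, and CYP19A1, the symbol of an aromatase gene, had too few reads to pass the filter, and the 2 genes named FOXL2, a factor of ovarian supporting cells, overlapped.

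Among steroid enzyme genes, 1 of the 21 lay wholly below DMSO (4.76%, near the 3.09% of all genes with a read). It was CYP17A1, an enzyme on the way to androgens, with 0.443, 0.281 and 0.211 CPM in E2, against 2.51, 1.25 and 2.92 CPM in DMSO. It was tested only without DMSO replicate 2 (edgeR adjusted p = 0.101). CYP17A1 did not pass the filter through E2, so this p-value is given without weight. STAR, which brings cholesterol into mitochondria for steroid synthesis, had 19.9, 4.22 and 16.2 CPM in E2, against 2.70, 1.5 and 6.31 CPM in DMSO, with overlapping groups (log2 fold change 1.89, SE 0.66, edgeR adjusted p = 0.579). The androgen synthesis gene cyp11c1 had 0.443, 2.95 and 0.740 CPM in E2, against 0.578, 3.26 and 0.914 CPM in DMSO, with no direction. hsd20b2, of steroid breakdown in fish, and fdx1, which passes electrons to steroid enzymes, lay wholly above DMSO without a call, hsd20b2 at 8.35 to 8.85 CPM in E2, against 2.25 to 6.40 CPM in DMSO.

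Vitellogenin transcripts, a product of the liver, overlapped between the groups. Their summed level was 2928, 264.8 and 160.6 CPM in E2, against 724.3, 4.259 and 1.371 CPM in DMSO. DMSO replicate 1 exceeded E2 replicates 2 and 3, and the 2 other DMSO libraries were near 0. vtg1 had 1749.7, 119 and 25.4 CPM in E2, against 280.0, 0 and 0.0914 CPM in DMSO (log2 fold change 2.75, SE 2.04, edgeR adjusted p = 0.655), and vtg3 had 746, 71.4 and 108 CPM in E2, against 150, 2.76 and 0.183 CPM in DMSO. All 7 that passed the filter, of 8 measured, had positive fold changes, none was called, and none lay apart. Without DMSO replicate 2, 5 of the 7 stayed above 0, with a median log2 fold change of 0.87 against 1.42 with it. Without E2 replicate 1 the median was -0.67 and 2 of the 7 were above 0, and without DMSO replicate 1 it was 8.01.

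On the EM background, with no library in common, the vitellogenin sums were 312.6, 44.72 and 186.9 CPM in EM+E2, against 1.928, 1.568 and 6.904 CPM in EM, and there all libraries lay apart. The E2 effect on vtg1 was 8.27 there (log2, SE 2.91) and 2.75 without EM, and the difference between the 2 effects was not called (5.52, SE 3.37, edgeR adjusted p = 0.73). DMSO replicate 1 also had the highest egg envelope sum of the 6 libraries.

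Of 18 other genes known to respond to oestrogen in fish or mammals 17 passed the filter in each fit. edgeR called none of them in either fit, and DESeq2 called 1 higher without DMSO replicate 2 and none with it. Without any filter 1 of the 18 lay wholly below DMSO (5.56%, against 3.09% of all genes with a read) and none wholly above it. nots, which encodes a secreted liver protease of egg-producing fish, had 57.8, 38.4 and 7.71 CPM in E2, against 18.9, 0.251 and 0.183 CPM in DMSO. The F13A1 gene that was the more highly counted of 2 had 73.2, 59.6 and 31.4 CPM in E2, against 74.6, 0 and 0.457 CPM in DMSO. As with vtg1, DMSO replicate 1 was the library that overlapped with E2. ESR1, the receptor gene that oestrogen raises in fish liver, had 2.66, 0.703 and 1.27 CPM in E2, against 6.84, 0.251 and 0.731 CPM in DMSO (log2 fold change -0.85, SE 0.91, edgeR adjusted p = 0.748).

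Secreted liver proteins other than yolk were high in E2 pools. The summed level of 30 plasma protein genes was 59700, 76160 and 48090 CPM in E2, against 41160, 18760 and 29280 CPM in DMSO, all E2 libraries above all DMSO libraries, with DMSO replicate 2 the lowest. It was 30280, 28530 and 44550 CPM in EM+E2 and 22420, 34130 and 31190 CPM in EM. All 30 passed the filter; 28 had positive fold changes, 10 an unadjusted p under 0.05, and 12 lay wholly above DMSO, against 5.21% of all genes tested. The median log2 fold change was 0.78, against -0.02 over all genes, and 0.76 without DMSO replicate 2, against 0.06. edgeR called none with all libraries and RBP4 alone without that one. DESeq2 called 3 higher with all libraries and 6 without it (of all genes 0.565% and 4.51%, in either direction).

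RBP4, the retinol carrier of blood plasma, had 2287, 1754 and 2507 CPM in E2, against 816, 337 and 596 CPM in DMSO. The lowest E2 library was above the highest DMSO library, and the log2 fold change was 1.90 (SE 0.36, edgeR adjusted p = 0.106) with all libraries and 1.62 (SE 0.29, edgeR adjusted p = 0.0276) without DMSO replicate 2. LIPC, the hepatic lipase that trims lipoproteins, had 98.5, 153 and 157 CPM in E2, against 44.1, 21.0 and 40.0 CPM in DMSO. Its log2 fold change was 1.95 (SE 0.32, edgeR adjusted p = 0.0867) with all libraries and 1.69 (SE 0.28, edgeR adjusted p = 0.0192) in the repeat. Both genes were also above all EM and EM+E2 libraries, which lay at 676 to 981 CPM for RBP4 and 27.8 to 77.8 CPM for LIPC. Both calls were lost when DMSO replicate 1 or 3 was also left out (edgeR adjusted p of 0.104 and 0.285 for RBP4, and 0.13 and 0.215 for LIPC), and that of RBP4 also without E2 replicate 1 or 3 (0.0675 and 0.0592).

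The next plasma protein genes by p were not called in either fit. apoc1, an apolipoprotein, had 3502, 4542 and 4461 CPM in E2, against 1648, 1089.6 and 720.0 CPM in DMSO (log2 fold change 1.85, SE 0.45, edgeR adjusted p = 0.359). serpina1, the gene of a plasma protease inhibitor, had 625, 1811 and 463 CPM in E2, against 218, 118 and 217 CPM in DMSO. fabp10a, the liver fatty acid binding protein often used to mark hepatocytes, had 1680.4, 1907 and 1258 CPM in E2, against 807, 1356 and 841 CPM in DMSO, and overlapped (log2 fold change 0.69, SE 0.33, edgeR adjusted p = 0.579).

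Complement and clotting genes, made mainly by the liver, had a median log2 fold change of 0.94 over 30 members, 26 of them positive and 10 wholly above DMSO, against 5.21% of all genes tested. The median was 0.64 without DMSO replicate 2, with 25 positive. serpinf2b, an inhibitor of plasmin, had 212, 316 and 169 CPM in E2, against 89.8, 42.8 and 108 CPM in DMSO, and c9, of the membrane attack complex, had 371, 1168 and 543 CPM in E2, against 275, 168 and 270.0 CPM in DMSO. Both lay apart, and neither was called. Of 34 liver metabolism genes 33 passed the filter, 27 with positive fold changes, with a median of 0.60 against 0.40 (23 positive) without DMSO replicate 2. With all libraries 8 lay wholly above DMSO and 2 wholly below it, against 5.21% and 3.17% of all genes tested. The sums of this list overlapped, at 11030, 14390 and 6766 CPM in E2, against 5561, 3346 and 6952 CPM in DMSO. edgeR called no member of these 2 lists in either fit. DESeq2 called 1 of each higher with all libraries, and 3 complement and clotting genes and 2 metabolism genes without DMSO replicate 2. Of all genes it called 0.565% and 4.51% in these fits, in either direction. uox, urate oxidase, had 543, 785 and 528 CPM in E2, against 340.0, 158 and 252 CPM in DMSO. TAT, tyrosine aminotransferase, had a log2 fold change near 0, at 0.07 (SE 0.43).

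**Figure D3:**
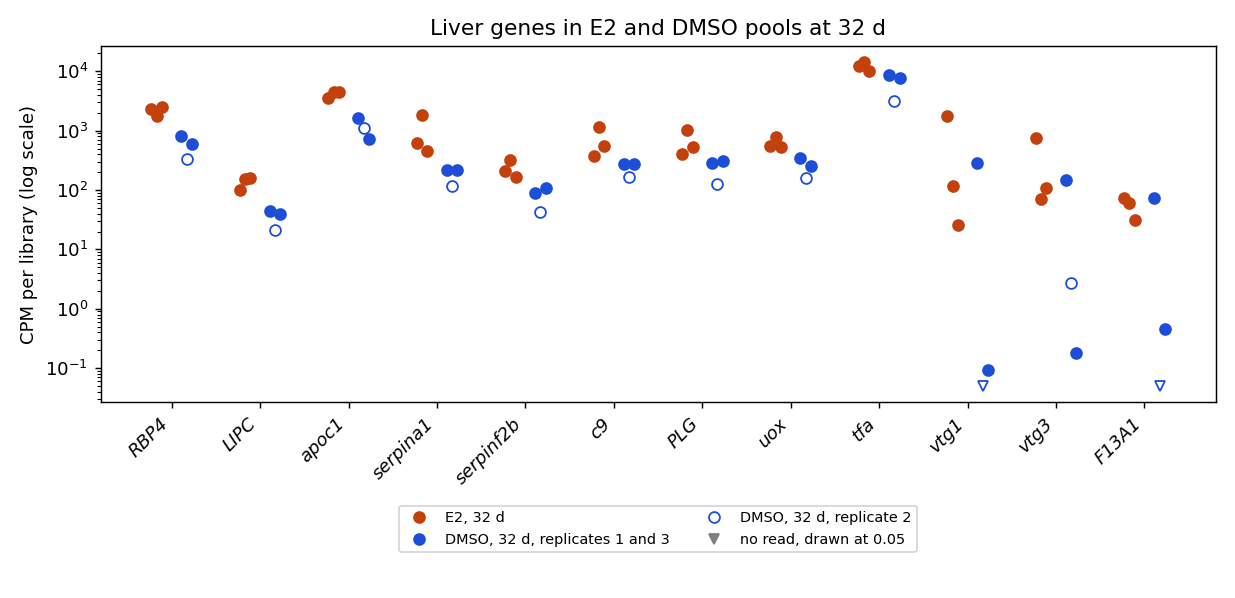
CPM per library on a log axis for 12 liver genes, E2 at the left and DMSO at the right of each gene; the open symbols are DMSO replicate 2 and triangles are libraries without a read, drawn at 0.05 CPM. RBP4 lies at 1754 to 2507 CPM in E2 and 337 to 816 CPM in DMSO, whereas vtg1, vtg3 and F13A1 overlap through DMSO replicate 1.

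Genes of the pancreas, intestine and skin also had mostly positive fold changes, and their part in the liver result was not tested. All 20 exocrine pancreas genes had positive fold changes (median log2 1.13), with overlapping sums of 21990, 4456 and 10640 CPM in E2, against 2767, 657.7 and 13070 CPM in DMSO. Of 23 intestine genes that passed the filter 21 were positive, and the sums of the 24 measured lay apart at 6322, 5370 and 7086 CPM in E2, against 4675, 3936 and 4243 CPM in DMSO. Skin and keratin genes also lay apart, at 9647, 5227 and 6754 CPM in E2, against 4703, 4301 and 5151 CPM in DMSO. Both separations are of scaled CPM and depend on the scaling factors of the libraries, so they may not hold in plain shares of reads. krt17, an epidermal keratin, had 683, 178 and 409 CPM in E2, against 141, 96.0 and 238 CPM in DMSO, and mep1a.1, a protease of the intestinal brush border, had 165 to 244 CPM in E2, against 97.0 to 138 CPM in DMSO. krt17 overlapped and mep1a.1 lay apart. The intestine median was 0.33 without DMSO replicate 2, against 0.63 with all libraries, and the skin median 0.35, against 0.66. The pancreas median was 0.84 there, 2.79 without DMSO replicate 3 and 0.63 without E2 replicate 1. edgeR called no gene of these 3 lists in either fit, and DESeq2 called 2 intestine genes and 1 skin gene higher without DMSO replicate 2. Of the liver transcription factors that passed the filter, 10 of 12 were positive (median log2 0.35), against 5 of 12 without DMSO replicate 2 (median 0.00). FOXA2, a factor of liver and gut endoderm, had 18.6, 12.8 and 14.4 CPM in E2, against 7.52, 0.251 and 5.12 CPM in DMSO, the 1 member that lay wholly above DMSO.

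**Figure D4:**
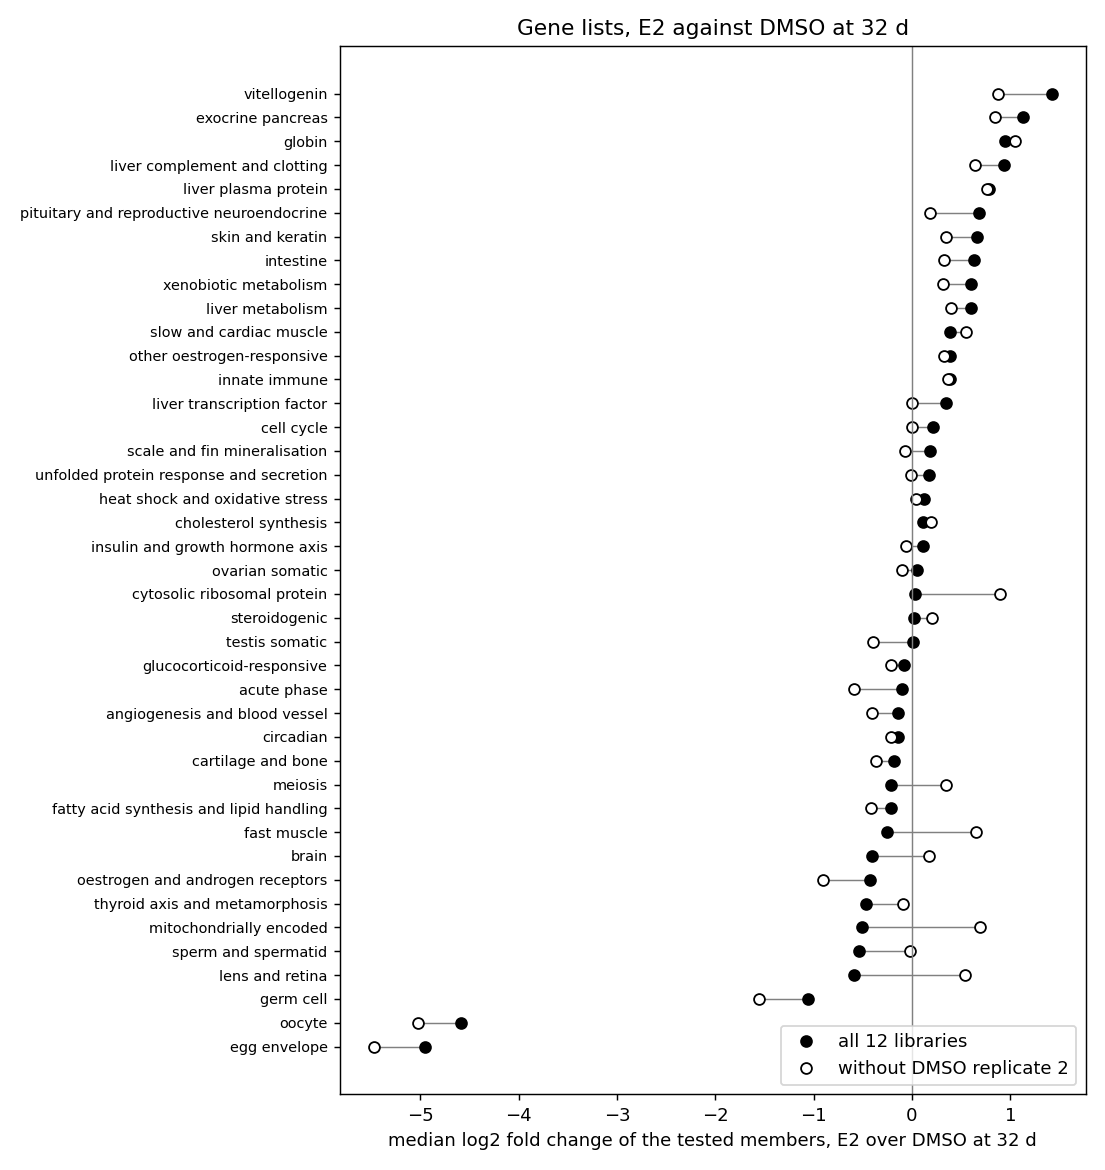
Median log2 fold change, E2 over DMSO at 32 d, of the members of 41 gene lists that passed the filter, with all 12 libraries (filled) and without DMSO replicate 2 (open). Egg envelope and oocyte lists lie at -4.95 and -4.59 with all libraries, liver plasma protein at 0.78 and 0.76 in the 2 fits, and the ribosomal protein list moves between 0.03 and 0.90; for the egg envelope list, 9 of 19 members passed the filter with all libraries, and for the oocyte list 19 of 30.

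Ribosomal protein genes had a direction that depended on DMSO replicate 2. Their summed level was 48960, 41050 and 43910 CPM in E2, against 25040, 83960 and 21690 CPM in DMSO. E2 pools lay between that library and all others, since EM+E2 had 21950 to 30740 CPM and EM 19810 to 28810 CPM. With all libraries 21 of the 39 tested had positive fold changes, and without DMSO replicate 2 the number was 38, of which edgeR called 2 and DESeq2 21. RPS15A, of the small ribosomal subunit and 1 of these, had 508, 580.0 and 751 CPM in E2, against 178, 1706 and 222 CPM in DMSO. Its log2 fold change was -0.20 (SE 0.66) with all libraries and 1.61 (SE 0.27, edgeR adjusted p = 0.0222) without that one. The call was lost again without DMSO replicate 1 or 3 as well (edgeR adjusted p of 0.165 and 0.135). Beside RPS15A, RPL38, RPL22L1, RBP4 and LIPC, the 11 genes called higher included FTCD, rabgap1l2, the muscle gene myoz1b, the lens crystallin crygm2d11 and 1 with a placeholder name.

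The 145 genes called lower without DMSO replicate 2 fell into 2 sets when split at a log2 fold change of -3, a value chosen after the data were seen. Set against DMSO replicate 2, which took no part in calling them, 74 of the 89 genes at or below -3 had that library above all E2 libraries, and 4 had it below. How often it lay outside the E2 range over all genes was not counted. As that library stood apart in general, such counts, here and for the other set, only describe where it lay. Of these 89, 19 were on the oocyte, egg envelope or germ cell lists and 46 carried placeholder names. In 87 of them all 6 EM and EM+E2 libraries were also below DMSO replicates 1 and 3, which the choice of genes high in those replicates fixes in part, and 55 of the 89 passed the filter with all libraries.

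Of the other 56 genes, DMSO replicate 2 was below all E2 libraries in 42 and above them in 8, and none was on those lists. Beside DMSO replicates 1 and 3 that library was low in both sets. It lay below both in 88 of the 89 genes and in 54 of the 56. The 89 had a median of 0.39 CPM in E2, which left little room below E2. The median level of the 56 was 1.96 CPM in E2, 9.54 CPM in DMSO replicates 1 and 3, 0.752 CPM in DMSO replicate 2, 8.21 CPM in EM+E2 and 6.52 CPM in EM. DYNC1H1, the heavy chain of cytoplasmic dynein, had 8.63, 12.7 and 7.29 CPM in E2, against 48.4, 3.01 and 69.3 CPM in DMSO. MBNL1, a splicing regulator, had 14.2, 7.88 and 12.8 CPM in E2, against 32.7, 1.25 and 50.9 CPM in DMSO, and NFIX, a transcription factor, had 12.4, 19.3 and 16.0 CPM in E2, against 44.4, 3.51 and 62.3 CPM in DMSO. For these genes E2 lay between the control libraries. The genes nearest the split were PRKAA2 at -3.14, with DMSO replicate 2 at 0.501 CPM beside 0.443 to 1.27 CPM in E2, and the oocyte nuclear factor npm2b at -2.95, with DMSO replicate 2 at 12.5 CPM beside 1.27 to 1.80 CPM in E2.

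**Figure D5:**
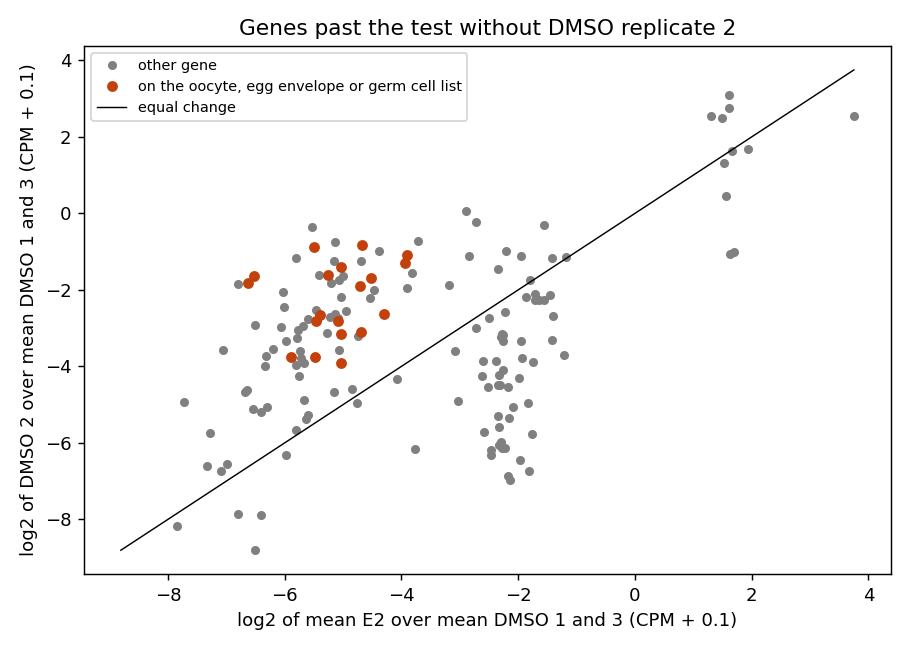
For the 156 genes called without DMSO replicate 2, the log2 ratio of mean E2 over the mean of DMSO replicates 1 and 3 (horizontal) and that of DMSO replicate 2 over the same mean (vertical), with 0.1 CPM added to each mean; the line marks equal ratios. Most genes on the left, the listed oocyte, egg envelope and germ cell genes (coloured) among them, lie above the line, and 42 of the 56 genes with fold changes above -3 have DMSO replicate 2 below all E2 libraries.

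On the remaining lists edgeR called no gene with all libraries, and DESeq2 1 acute-phase gene lower and 1 lipid gene higher. The edgeR calls without DMSO replicate 2 on lists not yet named were CCNB2, a mitotic cyclin, and LIPC, which stands on the lipid list. DESeq2 there called, among others, 5 fast muscle, 2 lens and retina and 2 xenobiotic metabolism genes higher, and 2 lipid genes higher and 5 lower. Of all genes it called 4.51% in that fit, in either direction. CCNB2 had 3.10, 1.69 and 3.17 CPM in E2, against 22.0, 2.25 and 9.14 CPM in DMSO, so that DMSO replicate 2 lay within the E2 range. Its call was lost without DMSO replicate 1 (edgeR adjusted p = 0.178) or E2 replicate 1 (0.0624) as well. ANGPTL4, an inhibitor of lipoprotein lipase, had 272, 244 and 254 CPM in E2, against 82.7, 140.0 and 94.2 CPM in DMSO, and lay apart without a call (log2 fold change 1.28, SE 0.33, edgeR adjusted p = 0.432). cyp2k6, of the drug-metabolising cytochromes, had 13.9, 23.9 and 6.02 CPM in E2, against 2.31, 0 and 0.0914 CPM in DMSO. Gene lists of the brain, of fast muscle, and of the lens with the retina had negative medians with all libraries (-0.41, -0.25 and -0.59 on the log2 scale) and positive medians without DMSO replicate 2 (0.17, 0.65 and 0.54), so no direction is given for them.

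Genes of reproductive control outside the gonad were sparse. Of 21 pituitary and neuroendocrine genes 6 passed the filter, among them tac3a, a tachykinin precursor of the reproductive axis, with 1.11, 1.55 and 1.69 CPM in E2, against 0.289, 0 and 0.457 CPM in DMSO. It lay wholly above DMSO and was not called (log2 fold change 2.28, SE 1.05, edgeR adjusted p = 0.579). Of 6 genes of oestrogen and androgen receptors 5 passed the filter, all with negative fold changes in both fits and none called. This direction depended on DMSO replicate 1. Without that library 3 of the 5 were positive, with a median log2 fold change of 0.2. Of 16 sperm and spermatid genes 12 passed, with a median log2 fold change of -0.54 with all libraries and -0.02 without DMSO replicate 2.

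Stress and clock genes had medians near that of all genes (-0.02) with all libraries. The heat shock and oxidative stress list had a median log2 fold change of 0.12 over 27 genes, the glucocorticoid-responsive list -0.08 over 22 and the circadian list -0.14 over 29. Of the 29 circadian genes 8 were positive, against 10358 of all 21242 genes tested. Without DMSO replicate 2 the 3 medians were 0.04, -0.21 and -0.21, against 0.06 over all genes. hsp70.1, an inducible chaperone, had 1.11, 0.422 and 0.634 CPM in E2, against 2.02, 5.26 and 1.28 CPM in DMSO, and PRDX1, a peroxidase, had 509, 381 and 370.0 CPM in E2, against 291, 236 and 242 CPM in DMSO. Both lay apart, in opposite directions, and neither was called. The 21 xenobiotic metabolism genes that passed the filter, many of them made in the liver, had a median of 0.60 with all libraries and 0.32 without DMSO replicate 2. The 31 innate immune genes that passed it had medians of 0.39 and 0.37, 22 and 21 of them positive. Cholesterol synthesis genes had a median of 0.11 over 27, and HMGCS1, an early enzyme of that pathway, overlapped at 78.3, 67.8 and 123 CPM in E2, against 162, 298 and 52.4 CPM in DMSO.

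Whether the E2 effect at 32 d differed from that in other settings was tested directly. The difference from the effect on the EM background gave no call among 21242 genes (0.0%, smallest edgeR adjusted p 0.317), with 1613 genes at an unadjusted p under 0.05 and 184 calls by DESeq2. That null holds with all libraries. With 1 replicate left out, edgeR made 0 to 13 calls higher and 0 to 2 lower. The differences from 16 d and 64 d gave none among 22357 genes each (0.0%), with 515 genes at an unadjusted p under 0.05 for 16 d and 2155 for 64 d, and 28 and 35 calls by DESeq2. For zp3b the effect was -4.79 (log2) without EM and 0.76 (SE 0.58) with it, and the difference was 5.55 (SE 0.81, unadjusted p = 1.49e-05, edgeR adjusted p = 0.317). At 16 d the E2 effect on zp3b was 0.59 (SE 0.76), and at 64 d it was -1.45 (SE 0.78), when the gene stood at 439 and 366 CPM in E2, against 1890.3, 532 and 872 CPM in DMSO. For RBP4 the effect was 0.25 (SE 0.35) on the EM background, 0.31 (SE 0.57) at 16 d and 0.74 (SE 0.63) at 64 d, beside 1.90 at 32 d, and none of the differences was called. One E2 library of 16 d, replicate 1, had 1071 CPM of summed plasma protein transcripts, against 22980 and 28690 CPM in the other 2, so the 16 d values include a library that stood apart.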

How the data were processed

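PolyA+ RNA of pooled whole zebrafish was sequenced from dUTP stranded libraries, per the labels. The deposited table holds raw counts per gene; per the submitters' processing notes the tools included HISAT2 2.0.5, SAMtools 1.5 and HTSeq 0.9.1, with build GRCz11. Whether counting used the strand is not given in the sources used here, so overlapping and antisense genes are uncertain. A second deposited table holds normalized signal values. Whole reads could be recovered from it (rounded, 100% of the values of each library used came within 0.01 of a whole read) and were tested as an alternative. They are not the same counts as the raw ones, and the 2 tables share 27913 genes. For DMSO replicate 2 of 32 d they summed to 3221489, against 7321277 raw counts. For DMSO replicate 3 the sums were 7363951 and 9024430.

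Counts were tested with edgeR 4.0.16 (R 4.3.3; filterByExpr with minimum count 10 and minimum total 15, TMM scaling, quasi-likelihood F test, Benjamini-Hochberg over all genes kept, threshold 0.05). The 12 libraries of 32 d were fitted together with 1 mean per group, and again without DMSO replicate 2; the comparisons with 16 and 64 d used 17 libraries. DESeq2 1.42.0, other scalings, filters, fits and left-out libraries were alternatives, and the code was tested on simulated counts. SE is the absolute log2 fold change over the square root of F. A fold against libraries at 0 uses 3 reads over the unscaled total of the group as a rough bound, which covers counting error only. Gene lists are described by counts and medians, with no test. Members, lists and the rule for named genes (a panel, the members of each list with the smallest p, and the largest changes called) were chosen with earlier results of these data known; other named genes were picked after their values were seen. Symbols came from a table of gene IDs; spellings in capitals are that table's. The EM+E2 column of 2 d that copies another was left out of the fit over all ages. Replicate numbers were not taken as pairs. A few single genes are not reported here.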

Additional observations from a re-analysis of the deposited data

How the results depend on the processing

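With all libraries, no call was made in either direction under the 6 libraries alone, 1 lower under RLE scaling, 13 lower with no filter, 3 lower on recovered reads, and 1 higher and 89 lower with all ages in 1 fit; DESeq2 gave 37 higher and 83 lower. Leaving out 1 replicate gave 0 to 11 higher and 0 to 145 lower, both upper ends being the fit without DMSO replicate 2; without DMSO replicate 1 it was 2 higher. Without DMSO replicate 2, DESeq2 called 354 higher and 633 lower, the 5 libraries alone 1 and 88, and leaving out a further replicate 1 to 123 higher and 25 to 416 lower, both upper ends without E2 replicate 2. RLE scaling, no filter and recovered reads gave 144 to 204 lower. The replicate number as a block gave 0 higher and 13 lower with all libraries, and 0 higher and 34 lower without DMSO replicate 2. Deviations from the group mean correlated at 0.047, 0.325 and 0.303 between same-numbered E2 and DMSO libraries. Differently numbered ones correlated at -0.324 to 0.185. The main fits did not take the numbers as pairs, and whether they mark a shared origin was not tested. The difference from the EM background had 46 higher and 138 lower by DESeq2, 1 higher with the replicate block, and 0 to 13 higher and 0 to 2 lower with a replicate left out. The difference from 16 d had 5 higher and 23 lower by DESeq2, and that from 64 d 8 higher and 27 lower by DESeq2 and 0 to 1 lower with a replicate left out. RPS15A turned direction without DMSO replicate 2, to a log2 fold change of 1.61; the other replicates left out gave -0.65 (without DMSO replicate 1) as the lowest value. The cause of these changes was not tested. RLE scaling moved the median log2 value of all genes by -0.13 in the difference from 64 d and by less than 0.1 in the other comparisons. Over the alternatives to the fit with all libraries, those with 1 replicate left out included, the list medians ranged from -5.47 to -4.25 for egg envelope and from -5.02 to -3.51 for oocyte genes. They ranged from 0.64 to 1.13 for liver plasma protein genes and from -0.28 to 0.90 for ribosomal protein genes. Counts of a few reads limit amh, gsdf, CYP17A1 and the aromatase gene, and groups of 3 or fewer libraries limit every test.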
